A study of Mus musculus with 6 samples.

Results

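The genes of the nuclear RNA polymerases were followed after siRNA against Spt6 in CH12F3-2A, a line derived from a mouse B cell lymphoma that can switch from IgM to IgA. Members were the genes whose symbol, brought to the name in use today, begins with Polr1, Polr2 or Polr3 followed by a letter. This gave 26 of 16390 named genes on the array, each with a single probe and each with a value on every array. They comprise 4 genes whose products are found only in polymerase I (Pol I), 6 only in polymerase II (Pol II), 9 only in polymerase III (Pol III), 1 shared by Pol I and Pol III (Polr1d), 5 shared by Pol I, II and III, and Polr2m, which encodes an associated protein (Gdown1) rather than a core subunit. Polr1f, Polr1g and Polr1h were listed under the older symbols Twistnb, Cd3eap and Znrd1, Polr2m under Grinl1a and Polr1d under a clone name. Polr1a, Polr1b, Polr1c and Polr2g are not analysed here, so both large subunits of Pol I are outside the comparison.

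Pol I transcribes the large ribosomal RNA precursor in the nucleolus, Pol II makes messenger RNA, and Pol III makes transfer RNA, 5S ribosomal RNA and other short RNAs. Each enzyme is built around a catalytic cleft between the largest and the second largest subunit, an assembly platform and a stalk. A set of small subunits is common to all of them, while the modules that help Pol I and Pol III to start and end transcription are built in and resemble separate initiation factors of Pol II. Spt6, encoded by Supt6, is a histone chaperone that binds elongating Pol II through its largest subunit and keeps chromatin in order behind it. The demand for Pol I and Pol III in growing B cells is high because both supply the protein synthesis machinery.

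Control siRNA was given to 3 samples (siControl) and Spt6 siRNA to 3 others (siSpt6). All were electroporated, received CIT (CD40 ligand, IL-4 and TGF-beta) 24 h later and were harvested after another 24 h, so no unstimulated cells enter the comparison. The medium was described alike for both groups, except that the labels give the concentration of 2-mercaptoethanol in micromolar for siControl and, with the same figure, in millimolar for siSpt6. Whether the replicates were separate cultures is not said in the labels, so the p-values reflect the spread among these samples alone, and that spread may be technical. The database numbers of the siControl samples lie apart from those of the siSpt6 samples. That does not show whether the groups were processed together, and a difference in processing could not be told apart from the siRNA. In bulk RNA, fewer cells of a kind and less RNA per cell cannot be told apart.

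Each array gave a Cy5 intensity in arbitrary units for between 21526 and 22372 probes, and the number of arrays limits the precision. Of 11 measured B cell marker genes all lay above the median level of the tested probes, with list medians of 9.10 to 9.48 (log2 intensity) over the 6 arrays. Of these B cell markers 1 rose and 1 fell. The medians of the T cell, myeloid, erythroid, and fibroblast and epithelial lists lay between 1.21 and 4.70, and none of their 21 measured genes passed the test. Among them, 1 of 6 T cell genes and 2 of 7 myeloid genes lay above the median level of the tested probes. The siRNA's target, Supt6, was 0.767 times the control level, which did not pass the threshold over all probes (limma adjusted p = 0.0973). Its siSpt6 values (21.8 to 28.1) were all below its siControl values (32.1 to 33.1). The 95% interval of its log2 difference was -0.69 to -0.07, and its probe lay just below the median level of tested probes. Supt6 passed only narrowly after cyclic loess (log2 difference -0.42, limma adjusted p = 0.0491), and in no other alternative that was run. A knockdown at the RNA level is therefore not established by this probe in the deposited values, and all directions below are those of the samples labelled siSpt6. A gene was called changed at a Benjamini-Hochberg adjusted p under 0.05 in a limma fit over all 21584 tested probes, of which 16.3% were called.

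The promoters of 5 members are shown first because these genes carry the clearest values below: the alternative Pol III subunits Polr3g and Polr3gl, which differed in direction, the Pol I partners Polr1e and Polr1g, which both fell, and the shared subunit Polr2l, the only member called higher. Each line is the stretch of 250 bases before the annotated gene start, 5′ to 3′ on the gene's strand, from RefSeq (GRCm38.p6). Capitals mark matches, on either strand, to any of 5 short motifs. The first was the E-box, spelled CACGTG, which Myc and related factors bind. The Ets core was searched as CCGGAA and belongs to the Ets family of factors. The GC box, a site of Sp1 and its relatives, was searched as GGGCGG. The CCAAT box was searched by the letters of its name, and the TATA box, which positions the start of transcription, was searched as TATAAA. No match overlapped another in these 5 stretches.
Polr3g, chr13:81711014-81711263, minus strand: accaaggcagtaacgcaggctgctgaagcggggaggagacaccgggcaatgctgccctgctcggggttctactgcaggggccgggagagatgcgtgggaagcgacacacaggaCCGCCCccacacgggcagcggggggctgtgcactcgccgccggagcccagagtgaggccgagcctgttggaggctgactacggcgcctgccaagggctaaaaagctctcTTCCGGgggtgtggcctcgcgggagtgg
Polr3gl, chr3:96594182-96594431, minus strand: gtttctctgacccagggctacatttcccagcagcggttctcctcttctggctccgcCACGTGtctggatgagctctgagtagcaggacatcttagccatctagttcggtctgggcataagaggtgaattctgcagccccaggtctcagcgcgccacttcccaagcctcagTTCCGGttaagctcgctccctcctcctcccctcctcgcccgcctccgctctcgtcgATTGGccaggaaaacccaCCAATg
Polr1e, chr4:45018359-45018608, plus strand: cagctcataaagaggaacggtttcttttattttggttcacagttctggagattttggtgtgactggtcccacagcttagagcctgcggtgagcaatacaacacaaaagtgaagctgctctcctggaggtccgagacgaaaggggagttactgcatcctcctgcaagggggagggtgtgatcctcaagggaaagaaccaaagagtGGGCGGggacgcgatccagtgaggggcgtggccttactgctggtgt
Polr1g, chr7:19359484-19359733, minus strand: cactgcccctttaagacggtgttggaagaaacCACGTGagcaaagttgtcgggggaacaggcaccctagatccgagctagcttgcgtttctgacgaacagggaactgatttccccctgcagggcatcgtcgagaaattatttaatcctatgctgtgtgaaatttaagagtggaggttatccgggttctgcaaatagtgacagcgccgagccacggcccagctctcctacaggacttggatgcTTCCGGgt
Polr2l, chr7:141475154-141475403, minus strand: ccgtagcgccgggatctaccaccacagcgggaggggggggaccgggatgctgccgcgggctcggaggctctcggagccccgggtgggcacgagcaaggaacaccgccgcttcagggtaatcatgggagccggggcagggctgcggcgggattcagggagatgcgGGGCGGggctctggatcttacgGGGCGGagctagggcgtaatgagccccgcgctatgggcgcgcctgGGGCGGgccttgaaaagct
Polr3g and Polr3gl each held an Ets core, with its first base 28 and 80 bases before the start, and only Polr3gl of that pair held an E-box and CCAAT boxes. Polr1g held an E-box with its first base 218 bases before the start and an Ets core with its first base 8 bases before the start, and Polr1e held a single GC box, so the pair that fell together shared none of the 5 motifs. Polr2l held 3 GC boxes. Promoter stretches were at hand for 22 members, in 25 windows because some genes have several starts. An Ets core was present in 36.0% of these windows against 12.0% of all 32851 promoter windows of that length, a GC box in 52.0% against 32.7%, an E-box in 12.0% against 6.0%, a CCAAT box in 32.0% against 33.8% and a TATA box in 8.0% against 12.4%. The shares were not tested, and the windows of Polr1h overlap. The full set holds windows of genes at any level, whereas 25 of the 26 members lie at or above the median level of tested probes. The shares are therefore not read as a trait of polymerase genes. These are matches of letters in a window and were not tested as binding sites.

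The polymerase genes that changed past the threshold belonged to different enzymes. Of the 26 genes, 5 fell and 1 rose, where 8.9% of all tested probes fell and 7.43% rose. The falls were Polr3g and Polr3f of Pol III, Polr1g and Polr1e of Pol I and Polr2c of Pol II, and the rise was the shared subunit Polr2l. The called share of members, 23.1%, was near that of the tested probes at or above the median level, 23.4%, among which 25 of the 26 members lie. Of those brighter probes, a background added after the values were seen, 15% fell and 8.35% rose, so the number of calls is not a result about polymerase genes. The median log2 difference of the 26 genes was -0.28, against 0.01 over all tested probes and -0.074 over the brighter probes. Of the 26 genes 18 lay below 0. The siControl and siSpt6 values did not overlap for 13 members, 11 of them lower and 2 higher in siSpt6. Of all complete probes, 20.4% were lower and 16.9% higher without overlap. The brighter probes fell more often, and their shares below 0 or without overlap are not given here. The member counts below 0 and without overlap are therefore not read as a result about polymerase genes. The median depended on scaling: it was -0.10 after quantile normalization and -0.13 after cyclic loess.

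**Figure D1:**
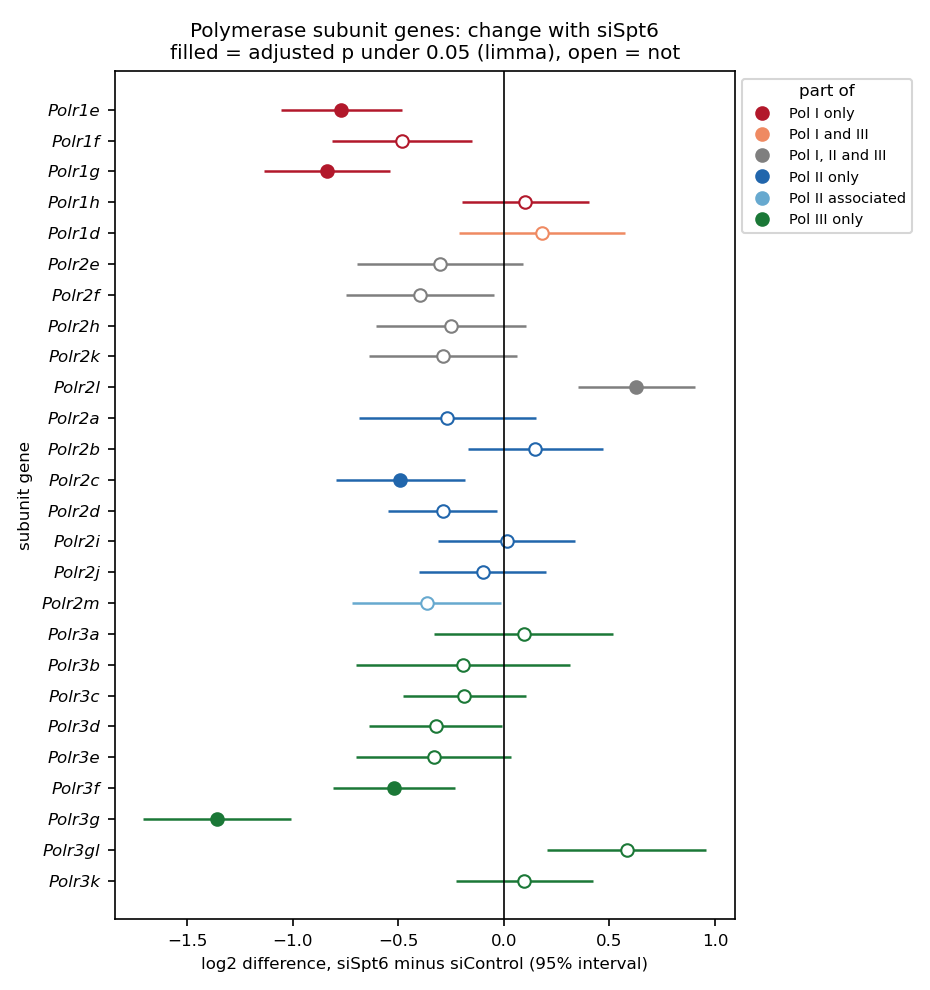
Log2 difference (siSpt6 minus siControl, x axis) of each of the 26 subunit genes (y axis), with 95% intervals from limma; colours give the polymerase a subunit belongs to, filled points passed the adjusted p threshold and open points did not. Polr3g lies farthest to the left at -1.36, and Polr2l, at 0.63, is the only filled point to the right of 0.

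**Figure D2:**
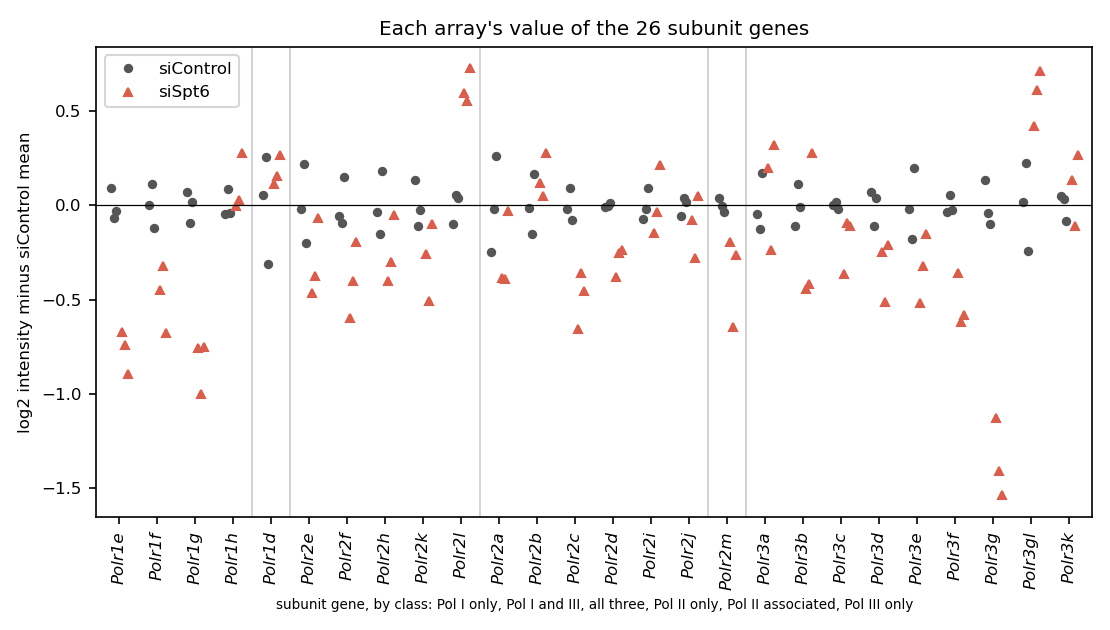
Log2 intensity of each subunit gene on each of the 3 siControl (circles) and 3 siSpt6 (triangles) arrays, relative to the gene's siControl mean (y axis), with genes ordered by class and grey lines between classes (x axis). The siSpt6 triangles of Polr1e, Polr1g and Polr3g lie well below all circles, those of Polr2l and Polr3gl lie above, and triangles and circles mix for most Pol II genes.

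The largest change among the members concerned a pair of alternative Pol III subunits. Polr3g and Polr3gl encode paralogous proteins that occupy the same place in the initiation trimer with Polr3c and Polr3f, so that a polymerase holds either one; Polr3g is known as the form of stem and tumour cells and Polr3gl as the form of most tissues. Polr3g read 104, 92.6 and 88.9 in siControl and 43.5, 35.8 and 32.7 in siSpt6. Every siSpt6 value was less than the lowest siControl value, and the means were 95.3 ± 8.11 and 37.3 ± 5.53 (intensity ± SD, n = 3 each). This was a fall of 2.56-fold, a log2 difference of -1.36 (SE 0.15, limma adjusted p = 0.00237). The call was kept with any 1 array left out (limma adjusted p 0.00606 to 0.0136).

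Polr3gl read 264, 304 and 220 in siControl and 349, 399 and 427 in siSpt6. All siSpt6 values were above all siControl values, with means of 263 ± 42.1 and 392 ± 39.4 (intensity ± SD, n = 3 each). The log2 difference of 0.58 (SE 0.16, 95% interval 0.21 to 0.96) just missed the threshold (limma adjusted p = 0.0501). It passed after quantile normalization (log2 difference 0.70, limma adjusted p = 0.0262) and after cyclic loess (0.70, limma adjusted p = 0.0222). Over all the alternatives its limma adjusted p ran from 0.0112 to 0.125. Within each array, log2 Polr3g minus log2 Polr3gl was -1.34, -1.72 and -1.31 in siControl and -3.01, -3.48 and -3.71 in siSpt6. The mean of this difference went from -1.46 ± 0.23 to -3.40 ± 0.36 (SD, n = 3 each), a change of -1.94 on the log2 scale, and the groups were fully apart. An exact permutation test over the 6 arrays gave p = 0.1 (two-sided), which is the smallest that 3 against 3 allows. The level of either transcript relative to the other is not given by these values, because probes differ in brightness. Only the change within arrays is, and its size depends on the signal over background, which is not known.

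**Figure D3:**
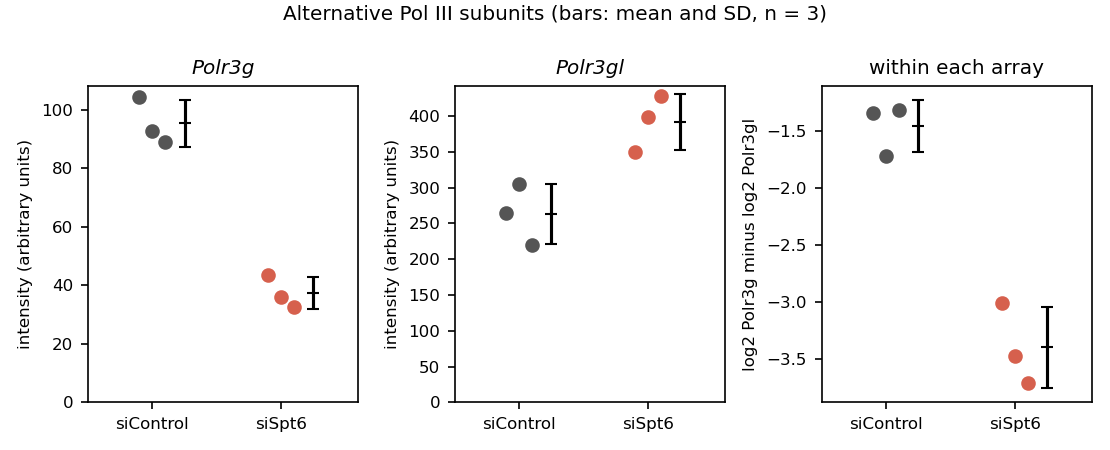
Intensity of Polr3g (left) and Polr3gl (middle), in arbitrary units from 0, and log2 Polr3g minus log2 Polr3gl on each array (right), for the siControl and siSpt6 samples; points are arrays and bars give mean and SD (n = 3). The siSpt6 points are lower for Polr3g (32.7 to 43.5), higher for Polr3gl (349 to 427) and lower for the difference between them (-3.71 to -3.01).

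The partners of this pair in the trimer moved less. Polr3f read 65.6, 70.0 and 66.2 in siControl and 52.4, 43.9 and 44.8 in siSpt6, with no overlap. It fell 1.43-fold (log2 difference -0.52, SE 0.12, limma adjusted p = 0.0312) and was not called once any array other than siSpt6 replicate 1 was removed (limma adjusted p 0.0711 to 0.0935). Polr3c, which contacts the rest of the enzyme, was at 518 ± 5.90 and 457 ± 46.3 (intensity ± SD, n = 3 each), a log2 difference of -0.19 that did not pass (limma adjusted p = 0.364). All 3 siSpt6 values of Polr3c were still below the siControl values, the nearest being 486 against 512. Polr3d and Polr3e, the pair that resembles the Pol II factor TFIIF, had like values to each other, -0.32 (95% interval -0.64 to -0.01) and -0.33 (-0.70 to 0.04). Neither passed (limma adjusted p = 0.156 and 0.205), and of the pair only Polr3d was without overlap between the groups.

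The catalytic subunits of Pol III showed no call. Polr3a, the largest subunit, whose probe lay below the median level of tested probes, read 18.4, 17.4 and 21.4 in siControl and 21.8, 16.1 and 23.7 in siSpt6. Its values were intermixed (log2 difference 0.09, 95% interval -0.33 to 0.52). Polr3b, the second largest subunit, was at 72.9 ± 5.71 and 65.4 ± 19.8 (intensity ± SD, n = 3 each). It was split among the siSpt6 arrays, with 53.5 and 54.4 below and 88.3 above all siControl values, and its interval was the widest of the members (-0.70 to 0.31). Polr3k, the zinc-binding subunit used in termination and RNA cleavage, had a difference of 0.10 (-0.23 to 0.42).

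Among Pol I genes, the pair that forms a built-in initiation module was lower in siSpt6. Polr1e (PAF53) and Polr1g (PAF49) dimerize on the surface of Pol I, where they resemble initiation factors of Pol II. Polr1g read 133, 119 and 128 in siControl against 74.8, 63.3 and 75.2 in siSpt6, a 1.79-fold fall (log2 difference -0.84, SE 0.13, limma adjusted p = 0.00684). Polr1e read 290, 259 and 266 against 170, 162 and 146, a 1.70-fold fall (-0.77, SE 0.12, limma adjusted p = 0.00766). In both genes each siSpt6 array was far below each siControl array, and neither gene lost its call in any alternative that was run (limma adjusted p up to 0.0279 for Polr1g and 0.0311 for Polr1e).

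The other Pol I genes differed from that pair in their calls. Polr1f, the stalk subunit through which Pol I binds the initiation factor Rrn3, read 147, 158 and 135 in siControl and 107, 117 and 91.7 in siSpt6. The groups did not overlap, but the difference of -0.48 (95% interval -0.81 to -0.15) missed the threshold (limma adjusted p = 0.0599) and passed it under 4 of 15 alternatives. Polr1h, which serves RNA cleavage, was at 1193 ± 62.3 and 1285 ± 142 (intensity ± SD, n = 3 each), with overlap and a difference of 0.10 (-0.20 to 0.41). Polr1d, the assembly subunit shared with Pol III, was at 1492 ± 288 and 1670 ± 91.6 (intensity ± SD, n = 3 each). Its siControl values ran from 1187 to 1760 and enclosed 2 of the siSpt6 values, and its difference was 0.18 (-0.21 to 0.57).

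Among the genes of Pol II alone, Polr2c was the only one called. It encodes the larger partner of the assembly platform, and read 1484, 1605 and 1425 in siControl against 954, 1174 and 1096 in siSpt6. The groups did not overlap, and the fall of 1.40-fold (log2 difference -0.49, SE 0.13) passed narrowly (limma adjusted p = 0.0446). It did not pass after quantile normalization (-0.23, limma adjusted p = 0.267), after cyclic loess (-0.27, limma adjusted p = 0.206) or with any of the 6 arrays removed (limma adjusted p 0.0656 to 0.125). Its partner in the platform, Polr2j, was at 1306 ± 44.0 and 1223 ± 138 (intensity ± SD, n = 3 each), with a difference of -0.10 (95% interval -0.40 to 0.20) that turned to 0.16 after quantile normalization and 0.12 after cyclic loess.

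Polr2a, the largest subunit, whose long C-terminal tail of repeats is phosphorylated through the transcription cycle and whose neighbouring linker is bound by Spt6, read 33.7, 39.4 and 47.9 in siControl and 30.5, 30.5 and 39.1 in siSpt6. The highest siSpt6 value lay within the siControl range, and the difference of -0.27 (95% interval -0.69 to 0.15) did not pass (limma adjusted p = 0.367). Polr2b, the second largest subunit, read 747, 680 and 848 against 822, 781 and 915, again with overlap, and its difference was 0.15 (-0.17 to 0.47). Polr2d, part of the stalk that guides the emerging RNA, read 621, 624 and 633 against 481, 525 and 532. Its groups were apart and its difference was -0.29 (-0.55 to -0.03), which did not pass over all probes (limma adjusted p = 0.125). Polr2i, a zinc-binding subunit that bears on start site choice and fidelity, had a difference of 0.01 (-0.31 to 0.34), and its siSpt6 values, 114 to 147, enclosed the siControl values. Polr2m, the Gdown1 protein that can hold Pol II back from initiation factors, was lower on all siSpt6 arrays, at 1402 ± 225 against 1790 ± 45.9 (intensity ± SD, n = 3 each), with a difference of -0.37 (limma adjusted p = 0.153).

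Among the 5 subunits common to all nuclear polymerases, Polr2l (RPB10, a small zinc-binding protein of the assembly platform) rose. It read 1249, 1392 and 1377 in siControl and 2028, 1963 and 2216 in siSpt6. The rise was 1.54-fold (log2 difference 0.63, SE 0.12, limma adjusted p = 0.0139), with the groups well apart, and it missed the threshold without siControl replicate 1 (limma adjusted p = 0.0512). After quantile normalization the difference was 0.90.

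The 4 other shared subunits lay below 0 in the deposited values and were not called. Polr2f (RPB6), needed for assembly and stability, read 1102, 1071 and 1268 in siControl and 755, 867 and 1001 in siSpt6. These groups did not overlap, and the difference was -0.40 (limma adjusted p = 0.122). Polr2e (RPB5, in the jaw that grips incoming DNA), Polr2k (RPB12) and Polr2h (RPB8) had differences of -0.30, -0.29 and -0.25, each with overlapping groups and 95% intervals that include 0. On siSpt6 replicate 3, Polr2e, Polr2f, Polr2h and Polr2k were each higher than on the other siSpt6 arrays, at 1290, 1001, 587 and 83.6.

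Set side by side by place in the enzyme, the homologous zinc-binding subunits Polr1h, Polr2i and Polr3k were at 0.10, 0.01 and 0.10 in the deposited values. Their 95% intervals reached at most 0.42 upwards and 0.31 downwards. Polr1h moved to 0.37 after quantile normalization and 0.32 after cyclic loess, without passing the test (limma adjusted p = 0.0762 and 0.106). The 95% intervals of the largest subunits Polr2a and Polr3a (-0.69 to 0.15 and -0.33 to 0.52), and those of the second largest, Polr2b and Polr3b, overlapped widely. Of stalk subunits, Polr1f and Polr2d were at -0.48 and -0.29 with groups that did not overlap, while Crcp, a stalk subunit of Pol III that is no member by its name, was at -0.24 with groups that overlapped (limma adjusted p = 0.359). These comparisons across enzymes were made with the values known and were not tested.

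By enzyme, the median log2 difference was -0.63 for the 4 genes of Pol I alone (2 fell), -0.19 for the 9 of Pol III alone (2 fell), -0.18 for the 6 of Pol II alone (1 fell) and -0.29 for the 5 shared by all (1 rose). Over all tested probes the median was 0.01, and 8.9% fell and 7.43% rose. Over the brighter probes, among which 25 of the 26 members lie, it was -0.074, and 15% fell and 8.35% rose. On single arrays the Pol I median, relative to the siControl mean, was -0.56, -0.53 and -0.71 in siSpt6 and -0.03 to 0.04 in siControl. For Pol II alone it was -0.26, -0.26 and 0.01 in siSpt6, so siSpt6 replicate 3 lay within the siControl range of -0.04 to 0.05. Pol III gave -0.36, -0.32 and -0.11 and the shared set -0.40, -0.38 and -0.06, where replicate 3 of siSpt6 was again the highest. Without siSpt6 replicate 3 the Pol III median was -0.38, and without siSpt6 replicate 1 it was -0.10. The median of Pol II alone was -0.11 without siSpt6 replicate 2. After quantile normalization the medians of Pol II alone and of the shared set moved to -0.022 and -0.072. The Pol I set holds 4 genes and lacks both large subunits. With shared subunits counted in each enzyme, the medians were -0.29, -0.27 and -0.25 for Pol I, II and III. Whether the enzymes differ was not tested, since genes are not replicates.

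**Figure D4:**
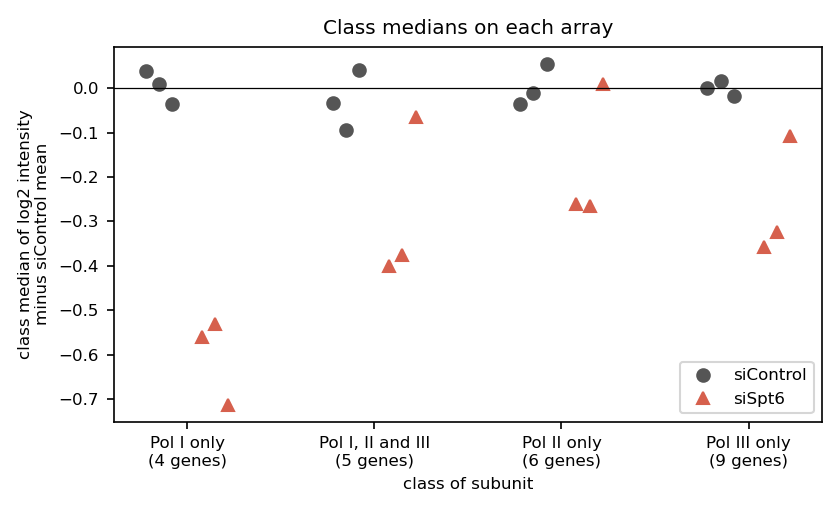
Median over the genes of a class of log2 intensity minus the gene's siControl mean (y axis), for each siControl (circles) and siSpt6 (triangles) array, by class of subunit (x axis). The Pol I triangles, -0.71 to -0.53, lie farthest from the circles, and siSpt6 replicate 3 is the upper triangle in the shared, Pol II and Pol III classes.

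**Figure D5:**
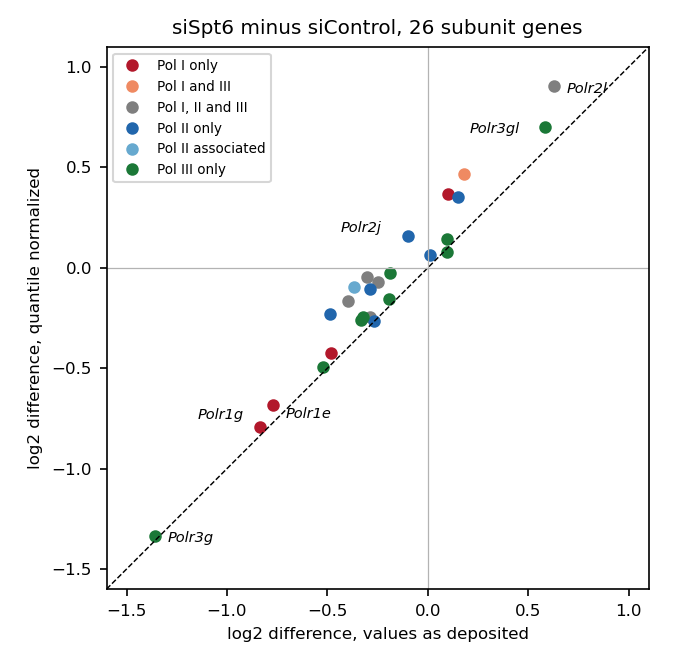
Log2 difference of the 26 subunit genes with the values as deposited (x axis) and after quantile normalization (y axis), coloured by class; the dashed line marks equality. Most points lie above the line, Polr2j crosses 0 (-0.10 to 0.16), and Polr3g, Polr1g and Polr1e stay near the line.

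The factors that work with these enzymes showed calls in both directions. Their counts are to be read against 8.9% of all tested probes that fell and 7.43% that rose, and against 15% and 8.35% of the brighter probes; no list was tested as a whole. Of 11 measured Pol I factors 2 fell and 0 rose (median log2 difference -0.08). Taf1d, a subunit of the promoter factor SL1, and Ddx21, a nucleolar RNA helicase, fell 1.76-fold and 1.68-fold (limma adjusted p = 0.0306 and 0.0344). Neither was called after quantile normalization or cyclic loess. Removing 1 array ended each of the Taf1d and Ddx21 calls in 4 cases of 6 (highest limma adjusted p 0.0886 and 0.0980). Rrn3 and Ubtf, the main initiation and promoter factors of Pol I, were added for their roles after their values were seen: their differences were -0.40 and 0.08, not called (limma adjusted p = 0.223 and 0.696). Of 17 Pol III factors 2 fell and 0 rose (median -0.15), namely Gtf3a, which binds 5S RNA genes (from 816 ± 20.5 to 565 ± 37.6, intensity ± SD, n = 3 each, limma adjusted p = 0.0212), and Gtf3c4, a subunit of TFIIIC (1.51-fold lower, limma adjusted p = 0.0451). Removing 1 array ended the Gtf3a call in 5 cases of 6 and the Gtf3c4 call in all 6 (highest limma adjusted p 0.0688 and 0.111). The Gtf3a call also ended after quantile normalization (-0.34, limma adjusted p = 0.0795) and cyclic loess (-0.36, limma adjusted p = 0.0632), while Gtf3c4 passed barely after quantile normalization (limma adjusted p = 0.0499) and just missed after cyclic loess. The list then had 1 rise and 1 fall after quantile normalization, and 1 rise and 0 falls after cyclic loess.

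Of 31 general initiation factors of Pol II, 2 rose and 2 fell (median -0.04, and 0.02 after quantile normalization). The TFIID subunit Taf13 rose 1.64-fold from 106 ± 6.88 to 173 ± 8.29 and Gtf2e1, a subunit of TFIIE, rose 1.62-fold (intensity ± SD, n = 3 each, limma adjusted p = 0.00827 and 0.0152). Taf5, another TFIID subunit, fell 1.72-fold (limma adjusted p = 0.0111), and Gtf2h1 of TFIIH fell 1.43-fold but was not called once any of the 6 arrays was removed (limma adjusted p 0.0518 to 0.0780), nor after quantile normalization or cyclic loess (limma adjusted p = 0.0952 and 0.0709). Of 30 Mediator genes, which bridge activators and Pol II, 5 fell and 1 rose (median -0.01, and 0.08 after quantile normalization). Med25 was at 411 ± 15.6 and 249.6 ± 17.8 (intensity ± SD, n = 3 each), a fall of 1.65-fold (limma adjusted p = 0.00804), and Med7 fell 1.44-fold, while Med10 rose 1.40-fold but was not called once any of the 6 arrays was removed (limma adjusted p 0.0538 to 0.131). The other falls were Cdk8, Med11 and Med30 (log2 differences -0.48, -0.51 and -0.43), named after their values were seen, and none of them was called after quantile normalization or cyclic loess or with any array removed. The Med7 call also ended after both normalizations (limma adjusted p = 0.0703 and 0.0605). Removing 1 array ended it in 4 cases of 6 (highest limma adjusted p 0.0626).

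The list of polymerase assembly and import factors had 4 falls and 0 rises among 15 measured genes, where 8.9% of all tested probes and 15% of the brighter ones fell, with a median log2 difference of -0.27 (-0.12 after quantile normalization and -0.14 after cyclic loess). Ruvbl1 and Ruvbl2 encode the AAA+ ATPases of the R2TP chaperone that, with Hsp90, helps assemble Pol II and other large complexes. Ruvbl1 read 1489, 1513 and 1520 in siControl and 868, 813 and 841 in siSpt6, a 1.79-fold fall (limma adjusted p = 0.00370). Ruvbl2 was at 1054 ± 80.6 and 497 ± 124 (intensity ± SD, n = 3 each), a fall of 2.16-fold (limma adjusted p = 0.0100). Slc7a6os, whose yeast counterpart Iwr1 takes assembled Pol II into the nucleus, read 195, 204 and 189.6 in siControl and 103, 106 and 83.8 in siSpt6, a 2.02-fold fall (limma adjusted p = 0.00439). Pfdn2, a prefoldin subunit of the same assembly machinery, fell 1.70-fold (limma adjusted p = 0.0112), a call that ended after quantile normalization (limma adjusted p = 0.0520). Ruvbl2 and Pfdn2 were named after their values were seen. Ruvbl1, Ruvbl2 and Slc7a6os kept their calls in every alternative that was run. Of 12 kinases and phosphatases of the Pol II tail only Cdk9 was called (1.49-fold higher, limma adjusted p = 0.0376), and removing 1 array ended the call in 5 cases of 6. Of 9 genes of mitochondrial transcription only Tfam was called (1.55-fold lower, limma adjusted p = 0.0133), and the mitochondrial RNA polymerase itself, Polrmt, named for comparison after its value was seen, was at 0.07 (limma adjusted p = 0.833).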

How the data were processed

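RNA of 3 siControl and 3 siSpt6 samples was compared. Per the labels' protocols, RNA was amplified, labelled with Cy5 and hybridised as the maker TORAY advises. The authors deposited intensity values on a linear scale with array medians equal within 0.00109 on the log2 scale (background correction and normalization: not given in the sources used here). Of 23473 probes 16631 had 1 gene symbol, updated with RefSeq names (GRCm38.p6); Polr1f, Polr1g and Polr1h were renamed beyond that table. Log2 values of 21584 probes with at least 2 values per group were fitted with limma 3.58.1 (lmFit, eBayes, two-sided, group as the only term) in R 4.3.3 and tested on simulated data. All members were named, with Supt6, Crcp and up to 2 rises and 2 falls per list of polymerase factors by smallest adjusted p. Members and lists were chosen with earlier results of these data known. Alternatives changed the normalization, dim-probe filter, missing values, pseudocount (2.66, the 10th percentile), variance model, array weights, replicate block and arrays used. Probe sequences were not used, so cross-hybridisation, for example to Polr2d and Polr2k pseudogenes, was not tested.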

Additional observations from a re-analysis of the deposited data

How the results depend on the processing

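Over 26 genes and the alternatives that could be run, 355 of 389 values kept their direction and their side of the threshold. This figure is mostly made of genes that stayed uncalled, since 20 of the 26 were not called in the main fit. Some alternatives, such as the trend and robust options, leave the log2 difference itself unchanged. Of the called genes, Polr2c lost its call in 8 of 15 alternatives, Polr3f in 6 and Polr2l in 1. Polr1e, Polr1g and Polr3g kept theirs in all 15. Member rises were 2 instead of 1 with quantile normalization, cyclic loess, complete probes only and the pseudocount. The same count came with the trend and robust options and bright probes only. Member falls were 4 instead of 5 after quantile normalization and cyclic loess. They were 6 with the pseudocount, 7 with the trend and robust options and 8 with bright probes only. The called share of all tested probes, 16.3% in the main fit, was 14.97% after quantile normalization and 15.6% after cyclic loess. It was 18.4% with complete probes only, 19.1% with the pseudocount, 21.2% with the trend and robust options and 36.8% with bright probes only. The larger counts of member falls came where more probes were called, so they are not read as stronger results about polymerase genes. With 1 array left out, member rises ran from 0 (without siControl replicate 1) to 2 and member falls from 3 to 4, while all probes gave 1047 to 1124 rises and 1052 to 1421 falls, against 1603 and 1922. The share of called probes that were higher was 45.5% as deposited, 57.3% after quantile normalization and 53.6% after cyclic loess. The class median of Pol II alone was -0.022 and -0.035, and that of the shared set -0.072 and -0.088, after quantile normalization and cyclic loess. With 1 array left out, the Pol I median ran from -0.66 to -0.55, that of Pol III from -0.38 to -0.10, that of Pol II from -0.25 to -0.11 (without siSpt6 replicate 2) and that of the shared set from -0.38 to -0.22. The Pol I median was -0.29 with shared subunits included and -0.77, of Polr1e alone, with RefSeq table names only, an alternative chosen after seeing the data. Uncalled genes that changed sign were Polr2j (0.16 with quantile normalization, 0.12 with cyclic loess), Polr2i (-0.089 without siSpt6 replicate 3 to 0.091 without siSpt6 replicate 1), Polr3a (-0.018 without siSpt6 replicate 3 to 0.26 without siSpt6 replicate 2) and Polrmt (-0.089 without siSpt6 replicate 3 to 0.17 without siSpt6 replicate 1). The cause of these changes was not tested. The Polr3g minus Polr3gl change stayed between -2.14 and -1.79 with 1 array left out. Each member has 1 probe, so averaging probes gave no other value. Same-numbered samples deviated together with r of 0.35, 0.08 and 0.26 (across probes), each the highest for its number, a hint from the data that falls short of showing that the numbers pair the samples. With the replicate block 1630 probes rose and 1964 fell, and among members 1 rose and 5 fell, with Polr1f gained (limma adjusted p = 0.0403) and Polr3f lost (limma adjusted p = 0.0520). Signal over background is not known, which limits the dim probes of Polr3a and Polr2a. It also limits Polr3g, whose siSpt6 values (32.7 to 43.5) lay within the range of Polr2a over both groups (30.5 to 47.9). The siSpt6 values of Polr3f (43.9 to 52.4) lay close to that range. The size of the Polr3g and Polr3f falls, and of the Polr3g minus Polr3gl change, therefore carries the same limit.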
